A study of Mus musculus with 7 samples.

Results

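The genes described are the nuclear genes named for complex I of the mitochondrial respiratory chain, in Lewis lung carcinoma (LLC) tumours. They were taken by symbol: every gene called Ndufa, Ndufb, Ndufc, Ndufs, Ndufv, Ndufab or Ndufaf with a number, leaving out symbols ending in -ps and Gm symbols. The rule found 49 of 32212 genes, of which 48 passed the filter on low values. They comprise 36 protein-coding subunits, 8 Ndufaf assembly factors, Ndufa4 with its paralog Ndufa4l2, and 3 further genes (Ndufs6b, Ndufb4c and Ndufa11b) that the GENCODE M21 annotation types as processed pseudogenes.

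LLC is a mouse lung cancer line that grows when transplanted. Its cells were injected under the skin of C57BL/6J mice at 6 weeks of age, and mice were assigned to treatment 3 days later. The control group (4 libraries) comprised wild-type model mice with no treatment. The ZQD group (3 libraries) comprised wild-type mice given the high dose of Ze-qi decoction, a herbal preparation, at 42.67 g/kg. Tumours were taken on day 22 by the protocol, while the design text gives day 21. Samples carry numbers in the labels, which do not state whether they are separate mice. The p-values therefore cover the spread among these 7 samples alone, which may be technical.

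Total reads were 32065288 to 49914394 in the control libraries and 34765330 to 38673663 in the ZQD libraries (two-sided exact permutation p = 0.571). The label calls the samples tumour cells, but they were pieces of tumour. Vim lay between 460 and 704 FPKM, whereas the epithelial markers Krt8 and Epcam did not exceed 0.164 and 0.288 FPKM, and Krt19 lay between 6.26 and 31.6. Markers of other cells differed between libraries: the summed fibroblast, neutrophil and erythroid markers were highest in ZQD 2 (209, 75.6 and 336 FPKM), adipocyte markers in ZQD 1 (18.3) and skeletal muscle markers in control 1 (32.1). The 10 macrophage and monocyte markers summed to 729 to 929 FPKM in the control libraries and 853 to 1044 in ZQD. Of these, 9 were higher in ZQD (median log2 fold change, ZQD minus control, 0.41), beside 6202 of all 14838 genes tested. All 6 neutrophil markers tested were higher (0.44). Only 2 of 5 erythroid markers were higher (-0.16), and 0 of 3 tested in the epithelial carcinoma list (-0.22). The part of these cells in the results below was not tested. In bulk tissue, fewer cells of a type and less RNA per cell cannot be told apart.

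Complex I takes electrons from NADH, passes them through a chain of iron-sulfur clusters to ubiquinone, and pumps protons across the inner mitochondrial membrane. Its N module binds NADH, its Q module reduces ubiquinone, and its membrane arm, divided into a proximal and a distal part, pumps protons. The catalytic core is shared with bacteria, the nuclear accessory subunits surround it, and the membrane core is encoded in mitochondrial DNA. Ndufaf proteins help to build the complex and are not part of the finished enzyme.

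Many nuclear respiratory genes carry sites for the transcription factor NRF1 near their start. In the RefSeq promoter table (GRCm38.p6), 40 of the 49 genes matched and 9 did not. The NRF1 consensus, searched on both strands and seen in capitals in the windows below, was in 8 of 34 subunit promoters (23.5%) and 2 of 7 Ndufaf promoters (28.6%), against 4.6% of all 32851 promoters of the same length. Overlapping promoters of Ndufa5 share 1 match, which is counted in each. By gene the consensus was found for 7 of 32 subunits and 1402 of all 27025 genes. A window around the match is shown for 2 subunits and an assembly factor, in the direction of the gene. In these the match lies upstream of the start and the window touches no annotated exon. Ndufa5, Ndufa8, Ndufb4 and Ndufs6 also have upstream matches, but the window around the match nearest the start touches an exon. Capitals mark the match.
Ndufa11, chr17:56717687-56717726, plus strand: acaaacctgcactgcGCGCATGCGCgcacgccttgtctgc
Ndufs5, chr4:123718260-123718299, minus strand: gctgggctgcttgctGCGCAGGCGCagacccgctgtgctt
Ndufaf4, chr4:24897955-24897994, plus strand: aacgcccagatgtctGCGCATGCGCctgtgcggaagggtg
The YY1 motif AAGATGGC (reverse complement GCCATCTT) was in 20.6% of subunit promoters and 2.75% of all promoters. The ETS motif CCGGAAG (reverse complement CTTCCGG) was in 11.8% and 8.86%, and the hypoxia-factor motif TACGTG (reverse complement CACGTA) in 0 of 34 subunit promoters and 3.23% of all. A match is a description of these letters and no evidence of binding.

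Levels of the nuclear subunits lay close together in control and ZQD tumours. The protein-coding subunits had a median log2 fold change (ZQD minus control, computed from log2(FPKM + 0.5)) of 0.0072, with 19 of 36 higher and 17 lower, while the median of all 14838 genes tested was -0.043. The split moves with the scaling: on the TPM scale, where the median of all genes was -0.15, 7 of 36 were higher (median -0.094), and with median-of-ratios scaling 21 of 36 were higher (0.050). Each scaling divides all genes of a library by 1 factor, so it moves the subunit median and that of all genes together. The subunit median was above that of all genes by 0.050, 0.051 and 0.055 under these 3 scalings, which are therefore no check of this gap. With 1 library left out the gap ran from 0.028 to 0.064. Fold changes ran from -0.38 to 0.36, and 32 of 36 (88.9%) lay within 0.25 of 0, against 71.8% of all genes. These shares are not matched for level or spread. The subunits had a higher median control level (14.9 FPKM, against 5.39 for all genes tested). Their median coefficient of variation among controls was lower (7.54%, against 13.0%). With the 2 tested pseudogene copies included, 21 of 38 were higher and the median was 0.015. No gene of the 49, and no gene in all (0%), passed an adjusted p of 0.05 in limma or in edgeR's quasi-likelihood test, with Benjamini-Hochberg adjustment over all genes. An unadjusted limma p under 0.05 was reached by 5 of the 36 subunits, and by 15.5% of all genes.

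Summed reads showed the same closeness. The 36 subunits together took 1105, 1169, 1083 and 1123 RPM (reads scaled to library size) in controls 1 to 4 and 1124, 1076 and 1122 in ZQD 1 to 3. The groups overlap, with the highest value in control 2 and the lowest in ZQD 2. Among the 7 libraries, control 2 and ZQD 1 each held the highest value of 10 subunits, and ZQD 2 held the lowest value of 10.

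**Figure D1:**
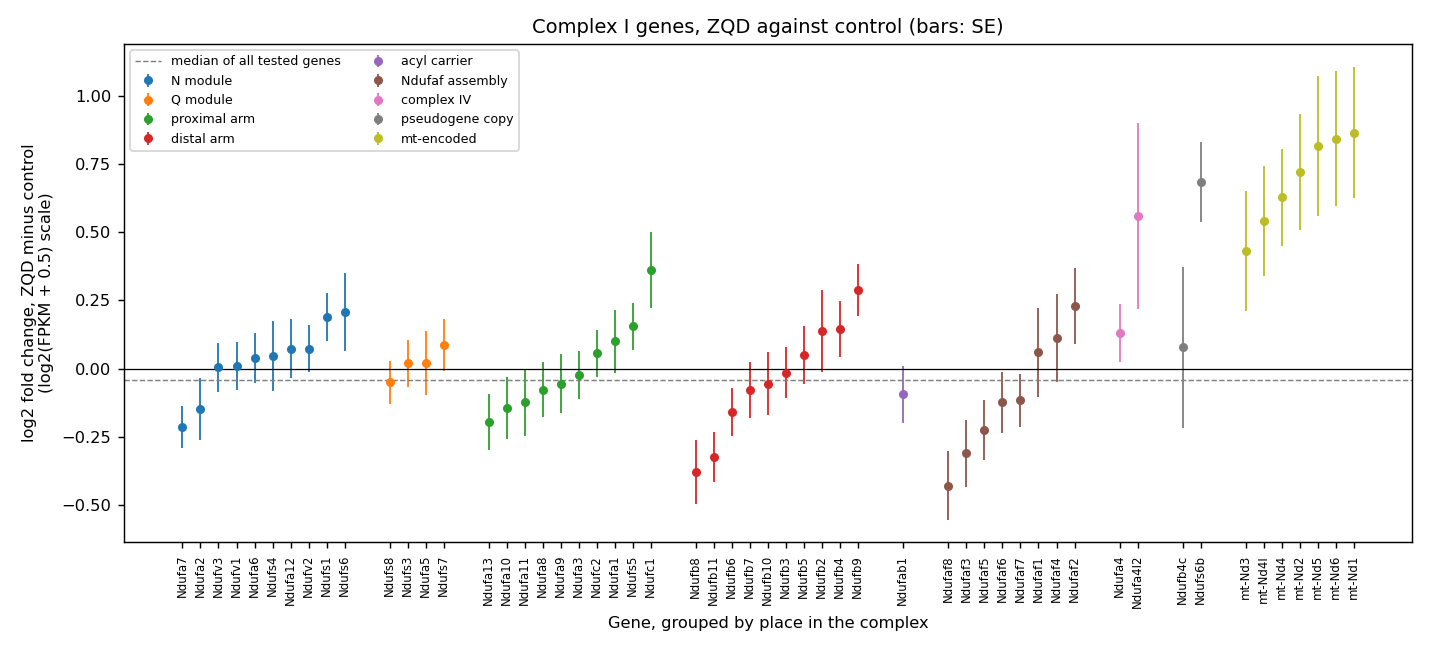
Log2 fold change of the genes tested, leaving out a subunit that is not reported (ZQD minus control, from log2(FPKM + 0.5)), ordered within each part of the complex; bars are the standard error of the limma fit and the dashed line is the median of all tested genes. Nuclear subunits lie on both sides of 0 between -0.38 and 0.36, and the 7 mitochondrially encoded subunits lie between 0.43 and 0.86.

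The 7 nuclear core subunits carry the cofactors and the ubiquinone site. Their median fold change was 0.020, with 5 higher and 2 lower (1 and 6 on the TPM scale), none with an unadjusted p under 0.05 and none with groups that did not overlap. Ndufs1, which holds iron-sulfur clusters of the N module, had 7.57, 7.51, 8.15 and 6.94 FPKM in the control libraries and 9.17, 8.72 and 8.12 in ZQD. Only ZQD 3 lay within the control range, and the log2 fold change was 0.19 (SE 0.089, limma adjusted p = 0.346). Ndufv1, which binds NADH and the flavin, had 11.7, 13.7, 12.01 and 12.9 FPKM in the control libraries and 12.1, 13.4 and 12.4 in ZQD, so the groups overlapped throughout (log2 fold change 0.0092).

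Ndufv2, which carries a further cluster, had 30.8, 31.8, 29.2 and 31.2 FPKM in the control libraries and 34.2, 34.1 and 29.1 in ZQD. ZQD 1 and ZQD 2 were above every control and ZQD 3 was below every control.

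In the Q module, Ndufs7, which carries the last cluster before ubiquinone, had 7.08, 6.93, 7.06 and 8.08 FPKM in the control libraries and 7.50, 7.30 and 8.56 in ZQD. Ndufs3 had 10.1, 9.13, 8.96 and 10.02 FPKM in the control libraries and 10.01, 9.97 and 9.09 in ZQD. Both sets of values overlapped. Ndufs8, another cluster-bearing subunit, had 15.9, 16.1, 14.9 and 17.3 FPKM in the control libraries and 15.1, 15.6 and 15.7 in ZQD, all 3 within the control range.

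By module, 8 of 10 N-module genes were higher (median 0.043), as were 3 of 5 in the Q module (0.020), 4 of 10 in the proximal arm (-0.039) and 4 of 10 in the distal arm (-0.035). On the TPM scale these numbers were 2, 0, 2 and 3, and with median-of-ratios scaling 8, 3, 5 and 5. The acyl carrier protein Ndufab1 was at -0.094. The control and ZQD libraries did not overlap for 5 of the 36 subunits, 1 higher and 4 lower, which is 13.9% beside 15.2% of all genes (5.35% higher, 9.84% lower).

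Ndufb8 and Ndufb11, accessory subunits of the distal arm, had the most negative fold changes among the subunits. Ndufb8 had 7.72, 9.33, 7.76 and 9.40 FPKM in the control libraries and 5.62, 6.73 and 7.06 in ZQD, so every ZQD library was below every control (log2 fold change -0.38, SE 0.116, limma adjusted p = 0.213). Ndufb11, an X-linked subunit, had 41.4, 38.7, 35.03 and 41.9 FPKM in the control libraries and 33.7, 29.6 and 30.5 in ZQD, again without overlap (-0.32, SE 0.092, limma adjusted p = 0.193). Of its exon length, 12.9% overlaps Rbm10. With the strandedness of the kit not given in the sources used here, reads there cannot be assigned to one gene.

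Ndufa7, an accessory subunit of the N module, had 16.5, 16.9, 15.4 and 16.5 FPKM in the control libraries and 13.1, 14.5 and 14.4 in ZQD, also without overlap (-0.21, SE 0.078, limma adjusted p = 0.260). Ndufa13, also known as GRIM-19, was the other subunit with no overlap, at 16.4 to 18.2 FPKM in the control libraries and 12.9 to 16.4 in ZQD; it was singled out after its values were seen. The nearest libraries, control 4 at 16.44 and ZQD 3 at 16.42, were almost equal, and 29.98% of its exon length overlaps Tssk6.

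Of the subunits with higher values, Ndufb9, in the distal arm, had 9.58, 10.7, 9.62 and 9.06 FPKM in the control libraries and 13.3, 11.5 and 11.3 in ZQD, with no overlap (0.29, SE 0.095, limma adjusted p = 0.231). Its exons share 19.5% of their length with Gm49356. Ndufc1, a small membrane subunit, had 3.39, 3.17, 3.94 and 3.04 FPKM in the control libraries and 5.26, 4.67 and 3.64 in ZQD. ZQD 3 lay within the control range there (0.36, SE 0.139, limma adjusted p = 0.278).

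**Figure D2:**
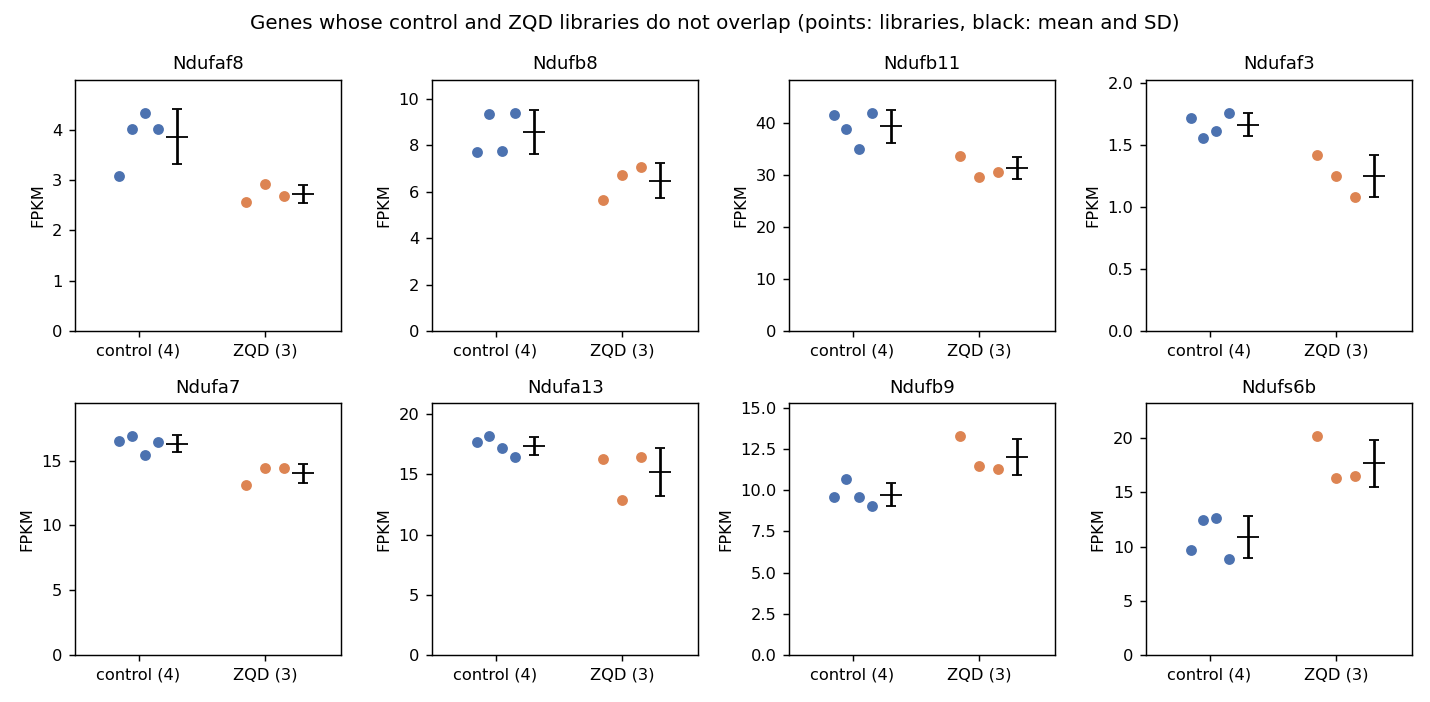
FPKM of the 8 genes whose control (blue, 4 libraries) and ZQD (orange, 3 libraries) values do not overlap. Points are libraries and black marks the mean and SD. These 8 genes are 16.7% of the 48 tested, beside 15.2% of all genes. Ndufaf8, Ndufb8, Ndufb11, Ndufaf3, Ndufa7 and Ndufa13 are lower in ZQD, and Ndufb9 and Ndufs6b higher.

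Ndufs6b is a copy of Ndufs6, a zinc-binding accessory subunit of the N module, and over its 348 bases it differs from the Ndufs6 transcript at 12 positions (96.6% identity), 11 of them transitions. The first 120 coding bases of both are shown from the start codon, from the GENCODE M21 transcripts, with the 7 mismatches there in capitals, because reads between mismatches can match either gene.
Ndufs6: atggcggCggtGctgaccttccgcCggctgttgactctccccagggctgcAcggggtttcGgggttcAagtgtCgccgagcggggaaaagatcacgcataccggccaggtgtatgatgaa
Ndufs6b: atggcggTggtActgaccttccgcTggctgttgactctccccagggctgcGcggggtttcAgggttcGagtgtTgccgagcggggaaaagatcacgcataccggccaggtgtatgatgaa

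Ndufs6b had 9.67, 12.5, 12.6 and 8.83 FPKM in controls, from 121 to 169 reads, and 20.2, 16.3 and 16.5 in ZQD, from 200 to 259 reads. All ZQD libraries were above all controls (0.68, SE 0.147, limma adjusted p = 0.154, edgeR adjusted p = 0.172). DESeq2 called it, with an adjusted p of 0.0210, and called 504 of 13099 genes (3.85%; 2.2% higher). With its filtering set for 0.05, an alternative tried with the first output known, its adjusted p was 0.0205 and 517 of 12525 genes were called (4.13%; 2.3% higher). It was the only one of the 49 that DESeq2 called. Ndufs6 itself had 40.4, 55.8, 48.1 and 36.4 FPKM in the control libraries and 50.8, 48.9 and 55.2 in ZQD, with overlap (0.21). The FPKM of Ndufs6b was 0.224 to 0.263 of that of Ndufs6 in controls and 0.299 to 0.397 in ZQD. The value of Ndufs6b is uncertain, with the counting of reads that match both genes not given in the sources used here.

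Ndufb4c is identical to Ndufb4 over all its 390 bases, and its value cannot be told apart from reads of Ndufb4. It had 2.31, 1.52, 3.84 and 2.86 FPKM in the control libraries and 3.89, 1.72 and 2.80 in ZQD. Ndufa11b (94.8% identical to Ndufa11) was listed above 0 only in control 3 and control 4 and was not tested.

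Of the 8 Ndufaf assembly factors, 3 were higher and 5 lower, and the median log2 fold change was -0.12. The median of the subunits was higher by 0.13; this difference of medians is a description. Libraries did not overlap for 2 of the 8 (25%), both lower, beside 9.84% of all genes lower. The factors summed to 102 to 135 RPM in controls and 109 to 117 in ZQD, with overlap.

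Ndufaf8 is the partner that stabilises Ndufaf5, an enzyme that hydroxylates Ndufs7. Ndufaf8 had 3.08, 4.01, 4.34 and 4.02 FPKM in the control libraries and 2.57, 2.91 and 2.69 in ZQD, each ZQD library below each control (-0.43, SE 0.125, limma adjusted p = 0.195). Ndufaf5 had 3.66, 4.17, 3.87 and 4.63 FPKM in the control libraries and 3.71, 3.11 and 3.44 in ZQD. Only ZQD 1 lay within the control range (-0.22, SE 0.110, limma adjusted p = 0.369).

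Ndufaf3 and Ndufaf4 act together in building the Q module. Ndufaf3 had 1.72, 1.56, 1.62 and 1.76 FPKM in the control libraries and 1.42, 1.25 and 1.08 in ZQD, with no overlap (-0.31, SE 0.121, limma adjusted p = 0.284). Ndufaf4 had 8.94, 13.6, 8.68 and 9.28 FPKM in the control libraries and 9.57, 10.9 and 12.1 in ZQD, with control 2 above every other library (0.11). The fold changes of this pair thus have opposite signs, a difference that was not tested.

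Ndufaf2, which acts late, when the N module joins, had 5.58, 7.41, 5.04 and 5.00 FPKM in the control libraries and 7.23, 6.46 and 6.59 in ZQD. Control 2 was the highest of all, and 65.6% of the exon length of this gene overlaps B230220B15Rik (0.23, SE 0.138, limma adjusted p = 0.452). Ndufaf1, a membrane-arm assembly factor, had 5.19, 8.28, 6.30 and 7.07 FPKM in the control libraries and 5.98, 6.72 and 8.26 in ZQD. All ZQD values of Ndufaf1 lay within the control range.

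Ndufaf7, an arginine methyltransferase, had 7.36, 8.04, 7.29 and 7.86 FPKM in the control libraries and 7.08, 7.82 and 6.21 in ZQD (-0.12). Ndufaf6 had 4.12, 4.79, 5.33 and 5.51 FPKM in the control libraries and 4.35, 4.35 and 4.70 in ZQD (-0.12). Both overlapped between the groups. Among 11 other complex I assembly factors in the files, of 12 listed, 2 were higher and 9 lower (4 and 7 with median-of-ratios scaling, median -0.098 and -0.061), and 1, the oxidoreductase-like factor Foxred1, had groups that did not overlap (-0.22, limma adjusted p = 0.302), a share of 9.09% beside 9.84% of all genes lower. The other of smallest p, Ecsit, a partner of Ndufaf1, was at -0.23 (limma adjusted p = 0.454).

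The 7 subunits encoded in mitochondrial DNA stood apart from the nuclear ones. All 7 were higher in ZQD (median log2 fold change 0.72), and 6 of 7 had an unadjusted limma p under 0.05, beside 5.21% of all genes higher. None passed adjustment in limma (smallest adjusted p 0.189), and DESeq2 called 5 of 7, beside 2.2% of all genes called higher. Groups did not overlap for 3 of 7, mt-Nd1, mt-Nd2 and mt-Nd4, beside 5.35% of all genes higher. The 7 genes are not independent results, because their values moved together between libraries. Control 4 was the lowest library for all of them but mt-Nd3. mt-Nd1 had 9861, 12869, 12117 and 7523 FPKM in the control libraries and 20321, 21390 and 15489 in ZQD (0.86, SE 0.241). The fold changes were 0.72 for mt-Nd2, 0.63 for mt-Nd4, 0.81 for mt-Nd5, 0.84 for mt-Nd6, 0.54 for mt-Nd4l and 0.43 for mt-Nd3. The control means of mt-Nd3 (8.51 FPKM) and mt-Nd4l (27.7) were far below those of mt-Nd4 (1914) and mt-Nd1 (10592). The cause of this gap in level was not tested.

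Reads of these 7 genes per read of the 36 nuclear subunits numbered 20.8, 22.6, 27.2 and 14.97 in controls and 40.2, 41.6 and 29.9 in ZQD. The groups do not overlap, and control 4 is lowest. All mitochondrially encoded genes took 6.71% ± 1.19 of reads in controls (SD, n = 4) and 10.2% ± 1.23 in ZQD (SD, n = 3). The two-sided exact permutation p, with the smaller tail doubled, was 0.0571, the smallest this form can give with 35 splits. Computed on the absolute difference of means it was 0.0286, also the smallest that form can give. Since the second form was tried with the p-values of the first known, the share is not called different here.

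**Figure D3:**
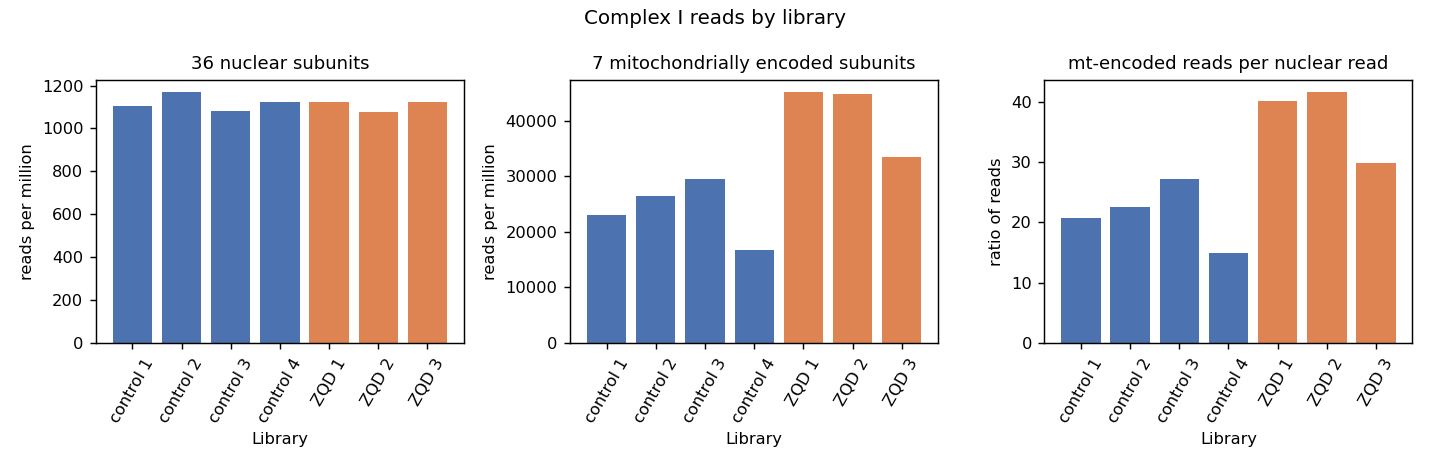
Library-normalised reads (RPM) of the 36 nuclear subunits (left) and the 7 mitochondrially encoded subunits (middle), and their ratio (right), by library, controls in blue and ZQD in orange. Nuclear values lie between 1076 and 1169 in all 7 libraries, while the ratio is 14.97 to 27.2 in controls and 29.9 to 41.6 in ZQD.

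Ndufa4 and Ndufa4l2 carry complex I names, but Ndufa4 is a subunit of complex IV and Ndufa4l2 is its hypoxia-induced paralog. Ndufa4 had 17.0, 22.0, 17.3 and 17.6 FPKM in the control libraries and 20.9, 19.1 and 20.6 in ZQD (0.13, SE 0.105). Control 2 was the highest. Ndufa4l2 had 1.83, 1.01, 1.25 and 0.951 FPKM in the control libraries and 1.63, 4.18 and 1.16 in ZQD (0.56, SE 0.339, limma adjusted p = 0.454; 0.93 in edgeR and 0.94 in DESeq2). ZQD 2 stood above all others, and without it the fold change was 0.12. The difference Ndufa4l2 minus Ndufa4 on the log2 scale was higher in ZQD by 0.43 (two-sided exact permutation p = 0.514), and by -0.048 without ZQD 2.

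The 6 fibroblast markers summed to 121, 52.6, 64.7 and 25.3 FPKM in the control libraries and 86.5, 209 and 30.2 in ZQD. ZQD 2 and then control 1 were highest for both these markers and Ndufa4l2. This order is not particular to fibroblast markers. The summed erythroid markers were also highest in ZQD 2 and then control 1 (336 and 229 FPKM). Neutrophil and endothelium markers were highest in ZQD 2 as well. The part of fibroblasts or of other cells in the level of Ndufa4l2 was not tested.

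**Figure D4:**
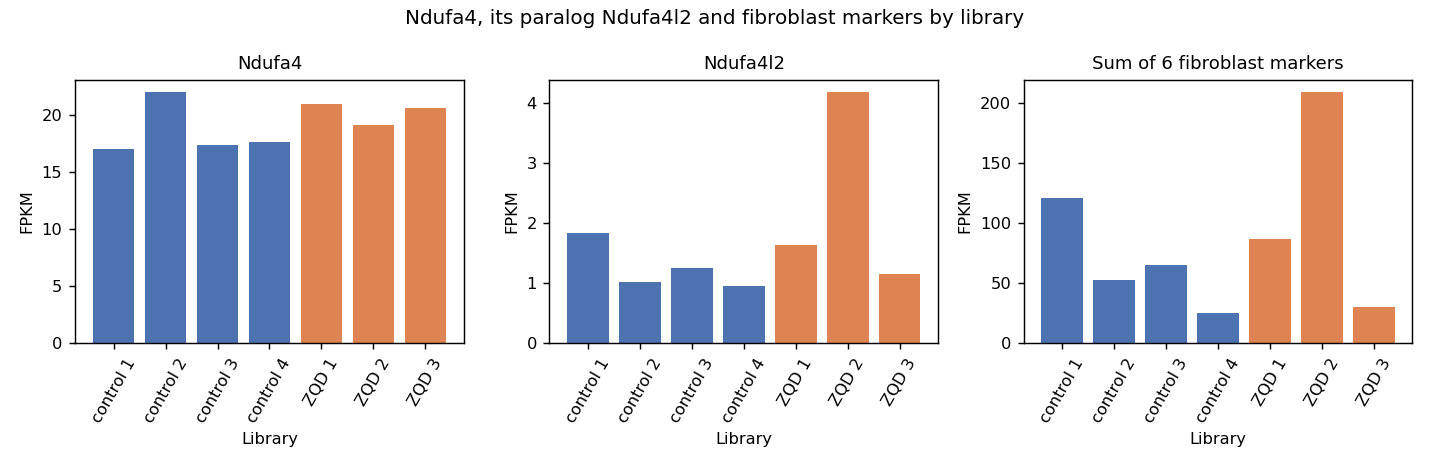
FPKM of Ndufa4 (left), Ndufa4l2 (middle) and the sum of 6 fibroblast markers (right) by library, controls in blue and ZQD in orange. ZQD 2 is the highest library for Ndufa4l2 (4.18) and for the markers (209), and not for Ndufa4.

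All 10 genes of a list of hypoxia-regulated mitochondrial and metabolic genes had lower values in ZQD (median -0.29). So did 8636 of all 14838 genes tested (median -0.043). Cox4i2 (-0.013) and Bnip3l (-0.018) lay closer to 0 than that median of all genes. With median-of-ratios scaling 8 of 10 were lower (median -0.25), beside 7551 of 14838 genes. An unadjusted limma p under 0.05 was reached by 3 of the 10, all lower, beside 10.3% of all genes lower. The list was not sorted by the direction in which hypoxia moves each gene, so these counts are no measure of a hypoxia response. Egln3, an oxygen-sensing prolyl hydroxylase, had 59.5, 59.9, 68.3 and 71.5 FPKM in the control libraries and 40.7, 46.7 and 45.0 in ZQD. The groups do not overlap (-0.55, SE 0.097, limma adjusted p = 0.146, edgeR adjusted p = 0.123, DESeq2 adjusted p = 0.00216). Pdk1, which inhibits pyruvate dehydrogenase, was at -0.40 (limma adjusted p = 0.280). Of 11 regulators of respiratory genes, 10 were tested, 5 higher and 5 lower (1 and 9 on the TPM scale). The 2 of smallest p were Polrmt, the mitochondrial RNA polymerase (-0.19, limma adjusted p = 0.353), and the nuclear receptor Esrra (-0.22, limma adjusted p = 0.368).

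The order of subunit levels depends on the gene length used. In controls Ndufb10, a distal-arm subunit, was the most abundant at 66.7 FPKM ± 5.24 (SD, n = 4). Ndufb10 had 69.7, 71.7, 59.9 and 65.5 FPKM in the control libraries and 55.7, 63.0 and 74.7 in ZQD, with overlap. Ndufb2 was lowest at 0.878 FPKM, with 0.858, 0.928, 0.942 and 0.785 in controls and 1.20, 0.776 and 1.10 in ZQD.

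For all 48 genes with a length, the length behind the FPKM equals the union of all GENCODE M21 exons. For Ndufb7 that union is 7.26 times the length of the principal transcript, and for Ndufb8 and Ndufb5 4.63 times. Where several transcripts of a gene are tagged as principal, the longest was used. Among the 34 subunits with a principal transcript length, dividing by that length moved Ndufb7 from rank 30 to rank 10 and Ndufb8 from rank 26 to rank 8, while Ndufb10 stayed first. Fold changes do not depend on this length, apart from the pseudocount.

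**Figure D5:**
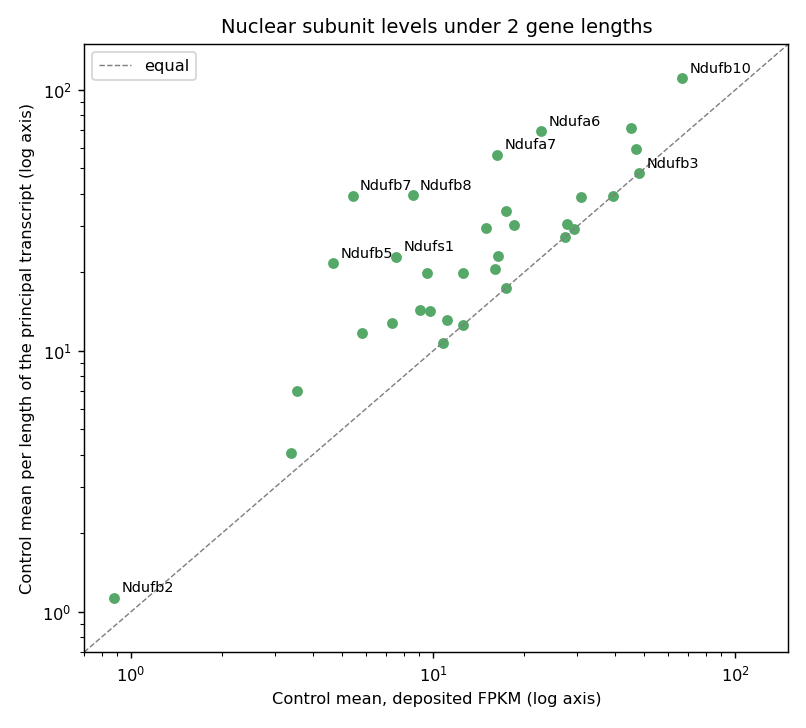
Control mean of the nuclear subunits shown as deposited FPKM (horizontal, log axis) and per length of the principal GENCODE M21 transcript (vertical, log axis); the dashed line marks equal values. Ndufb7, Ndufb8 and Ndufb5 lie farthest above the line.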

How the data were processed

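The authors deposited FPKM per gene for 7 libraries and raw counts for 2 of them, controls 1 and 2. HISAT2, Subread, featureCounts and DESeq2 are named in the submitters' processing notes. Versions, build and annotation: not given in the sources used here. Lengths from the deposited counts and FPKM gave reads for 27421 genes; all (100%) rebuilt values lay within 0.05 of whole reads. Symbols matched 98.0% of 32212 genes.

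The test was limma 3.58.1 with trend (R 4.3.3) on log2(FPKM + 0.5), two-sided, for 14838 genes with FPKM of at least 0.5 in 3 libraries. edgeR 4.0.16 and DESeq2 1.42.0 were run on reads of 14832 genes. The tests were checked on simulated reads. One read was worth 0.0200 to 0.0312 FPKM at 1 kb.

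Values in every library are given for the 3 subunits of smallest p per direction, the 7 core subunits, the Ndufaf genes, Ndufa4, Ndufa4l2 and the 2 most and 2 least abundant subunits. A subunit that this rule takes is not reported here, though the counts include it. Members and lists were chosen with earlier results of these data known.

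Settings of 2 kinds were changed once their output had been seen, then changed back. The exact permutation p (scipy 1.17.1) first doubled the smaller tail and was replaced by that of the absolute difference, partly because it matched an earlier account of these data. DESeq2 first filtered with its default alpha of 0.1, replaced by 0.05. The first forms are the ones reported, and the later ones are alternatives.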

Additional observations from a re-analysis of the deposited data

Results flagged for a closer look

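In 7 of 51 sets of 4 control values, 1 library stood far from the other 3. Chance gives about 1 in 20 such sets where sets are independent. These sets all come from the same 4 libraries, so the number cannot show an excess over chance. Control 2 was high for Ndufa1 (32.5 FPKM), Ndufa4 (22.0), Ndufa5 (13.7) and Ndufaf4 (13.6). Control 3 was low for Ndufa11 (4.68 FPKM). Control 4 was high for Ndufs4 (10.2 FPKM) and Ndufs7 (8.08).

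The symbol rule leaves out 2 genes that had reads. Ndufab1-ps had a control mean of 1.32 FPKM and Ndufb1-ps of 14.996 FPKM. GENCODE M21 types Ndufb1-ps as a long noncoding RNA with a bidirectional promoter, while the RefSeq table gives the symbol Ndufb1, a distal-arm subunit. Its ZQD mean was 16.6 FPKM (log2 fold change 0.14, limma adjusted p = 0.435).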

How the results depend on the processing

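Where limma called 0 genes at an adjusted p under 0.05 (773 higher and 1533 lower at an unadjusted p under 0.05), edgeR called 0, DESeq2 504, or 517 with filtering set for 0.05, and the fit with the replicate block 1, not among the 49. Ndufs6b passed in both DESeq2 forms (0.75, adjusted p 0.0210 and 0.0205). Deviations of same-numbered libraries from their group means had correlations of 0.252, 0.0998 and -0.150. Over all pairs of a ZQD and a control library the correlations ran from -0.295 to 0.255. With so few libraries these values cannot decide whether the numbers mark a pairing. On the TPM scale the median of all genes moved to -0.15, the subunit median to -0.086 with 8 of 38 higher, and the Ndufaf median to -0.23; unadjusted calls were 377 higher and 2861 lower there, and 1097 and 1082 with median-of-ratios scaling. With 1 library left out, the median of the 38 subunits, pseudogene copies included, ran from -0.011 to 0.019. That of the 36 protein-coding subunits ran from -0.018 to 0.019. The Ndufaf median ran from -0.17 to -0.088, and Ndufa4l2 minus Ndufa4 from -0.048 to 0.75. The share of mitochondrially encoded reads was higher in ZQD by 3.47 percentage points (2.96 to 4.17 with 1 library left out), p 0.0571 or, on the absolute difference, 0.0286. Of 26 named genes, 18 kept their direction under all alternatives. Signs reversed on the TPM scale for Ndufaf1 (-0.036), Ndufb4c (-0.0087), Ndufs3 (-0.080), Ndufs7 (-0.0086), Ndufv1 (-0.092) and Ndufv2 (-0.028), and without mitochondrially encoded genes in the scaling for Ndufs8 (0.0027). With 1 library left out, values crossed 0 for Ndufaf1 (-0.058 to 0.16), Ndufb4c (-0.15 to 0.34), Ndufs3 (-0.0082 to 0.064), Ndufv1 (-0.034 to 0.050) and Ndufb10 (-0.17 to 0.044). The cause was not tested. The protein-coding restriction, the DESeq2 filtering, the absolute-difference p, the principal transcript length and the library omissions for the mitochondrial share were chosen after seeing the data.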
